A study of Mus musculus with 24 samples.

Results

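The loss of COSMC in cells that already lack CMAS was examined in MC38, a colorectal cancer cell line of C57BL/6 mice, by comparing the RNA of the line labelled MC38-DKO (target genes CMAS and COSMC) with that of MC38-CMAS KO (target gene CMAS only). All genes with at most 4 zeros among the 6 samples were used, which gave 21858 of the 52636 genes in the table. The 6 samples are 3 of each line out of 24 samples of 8 MC38 lines, and CMAS is a target in both lines, so that COSMC is the only target that separates the labels. Both lines were made with CRISPR-Cas9, kept under puromycin and harvested at passages 4, 5 and 6 for samples 1, 2 and 3. MC38-WT, the unmodified cells at passages 7 to 9, MC38-MOCK#1, labelled as a mock line, and MC38-COSMC KO, in which only COSMC was targeted, serve below as reference lines. MC38-MOCK#1 and MC38-COSMC KO were also harvested at passages 4 to 6. The other lines set beside them were harvested later, MC38-MOCK#2 and MC38-FUT9 at passages 6 to 8 and MC38-FUT4 at passages 7 and 8. Whether MC38-DKO and MC38-CMAS KO are clones or bulk populations, and whether one was made from the other, is not given in the sources used here. Each genotype is a single line, so a difference between lines and an effect of the genotype cannot be told apart, and the p-values measure the spread between the passages of these lines.

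COSMC, encoded by C1galt1c1, is the chaperone of core 1 galactosyltransferase (C1galt1), the enzyme that adds galactose to the first N-acetylgalactosamine of a mucin-type O-glycan. Cells without working COSMC stop at that first sugar, the Tn antigen. CMAS activates sialic acid to CMP-sialic acid, the donor that all sialyltransferases use, so cells without CMAS carry no newly made sialic acid on O-glycans, N-glycans or glycolipids. The comparison therefore asks what the truncation of O-glycans adds to a surface that should hold no sialic acid.

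The values are read counts scaled by the authors with a single factor per library and rounded, called normalized counts below. The 6 totals lay between 11048959 and 11567786 normalized counts. Sequencing depth, estimated from the spacing of the values, was about 7135000, 13940000 and 11770000 reads in samples 1, 2 and 3 of MC38-DKO and 12250000, 11450000 and 9753000 reads in those of MC38-CMAS KO, so sample 1 of MC38-DKO was the shallowest. On the first principal component of the 24 samples, which held 31.3% of the variance, MC38-DKO (36.4 to 41.8) stood beside MC38-MOCK#1 (37.0 to 40.3), whereas MC38-CMAS KO lay between -2.00 and 2.69. MC38-WT and MC38-COSMC KO ranged from -10.1 to -5.20 on this axis, and the other mock line, MC38-MOCK#2, from -10.3 to -6.24. The line labelled MC38-FUT4 (26.7 to 29.6) also lay on the side of MC38-DKO, and MC38-FUT9 (-83.9 to -79.4) far on the other. Thus MC38-MOCK#1 did not group with MC38-CMAS KO or with the unmodified cells.

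The targeted genes were examined first. Cmas had 142, 135 and 122 normalized counts in MC38-DKO and 117, 93 and 126 in MC38-CMAS KO. Both lines lay below each of the 18 samples of the other lines, which held 272 to 416. Cmas did not pass the test between both lines (log2 fold change 0.25 ± 0.15 (SE), adjusted p = 0.392 from limma). C1galt1c1 (ENSMUSG00000048970, chromosome X of GRCm38, minus strand, 38630785 to 38635087) had 206, 166 and 175 normalized counts in MC38-DKO and 215, 181 and 152 in MC38-CMAS KO. Its samples overlapped, and limma gave 0.01 ± 0.16 on the log2 scale with an adjusted p of 1. In MC38-COSMC KO the gene had 145, 163 and 124 normalized counts, and in MC38-MOCK#1 242, 220 and 251. C1galt1, the client of the chaperone, had 367, 341 and 320 against 363, 394 and 343 (log2 fold change -0.10 ± 0.10, adjusted p = 0.631). A frameshift made by Cas9 need not alter the level of its RNA, and the RNA of C1galt1c1 did not tell the lines apart. The genotype of MC38-DKO is hence taken from its label.

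Of the 21858 genes, 1515 were DEGs (6.93%; adjusted p below 0.05 from limma on log2 of the normalized count plus 1), of which 689 were increased (3.15%) and 826 decreased (3.78%) in MC38-DKO. Non-overlapping samples were found in 24.5% of all genes and in all 1515 DEGs. The median absolute log2 fold change of the DEGs was 0.72, and 259 increased and 332 decreased DEGs changed more than 2-fold. Leaving out a single sample lowered the count, to 339, 231 and 445 without sample 1, 2 or 3 of MC38-CMAS KO and to 761, 341 and 441 without sample 1, 2 or 3 of MC38-DKO. The largest of these counts, 761, was obtained without the shallowest sample. When only genes with a mean of at least 10 normalized counts were tested, 1814 of 13512 were DEGs, a larger share than 6.93%. The shares of the gene lists below are set against 6.93%, which also covers genes of low level.

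**Figure D1:**
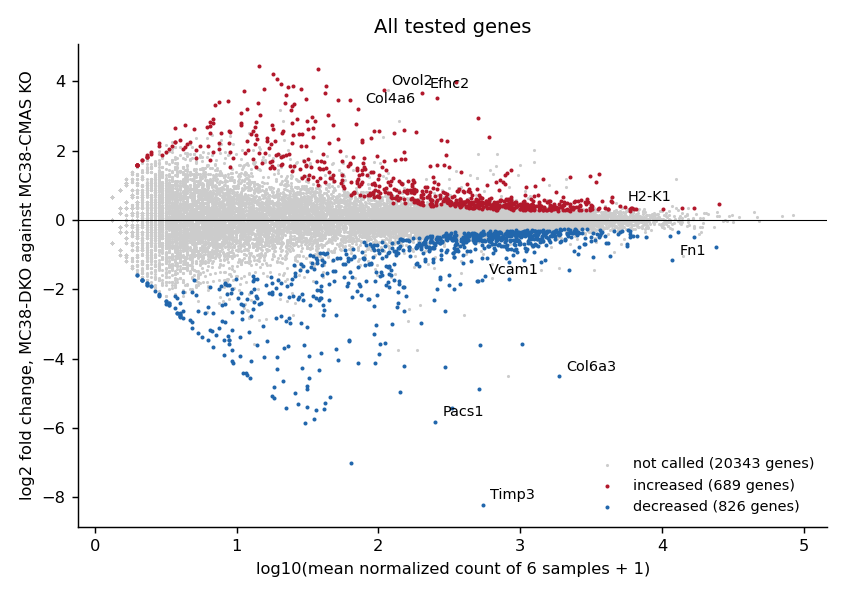
Log2 fold change of MC38-DKO against MC38-CMAS KO (vertical axis) by the mean normalized count of the 6 samples plus 1 (horizontal axis, log10) for the 21858 tested genes. Red points are the 689 increased and blue points the 826 decreased DEGs, with the lowest decreased gene, Timp3, at -8.22.

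The increased gene with the largest change among those the naming rule allowed was Ovol2, a zinc finger repressor that favours epithelial over mesenchymal states. Ovol2 had 159, 205 and 239 normalized counts in MC38-DKO and 9, 12 and 24 in MC38-CMAS KO, for a log2 fold change of 3.75 ± 0.34 (SE, n = 3 and 3) and an adjusted p of 0.00111 in limma. Wfdc2, a secreted whey acidic protein of epithelia, had 488, 475 and 453 against 41, 30 and 54 normalized counts (log2 fold change 3.51 ± 0.20, adjusted p = 0.000115 from limma). In both genes the lines were far apart, and the spread within MC38-DKO was small in Wfdc2 and larger in Ovol2. Padi4, which converts arginine to citrulline in histones, had 856, 886 and 912 against 100, 112 and 129 (log2 fold change 2.96 ± 0.11). Traf1, an adaptor of TNF receptors, had 206, 310 and 266 against 37, 42 and 46 (log2 fold change 2.60 ± 0.18). The others were Efhc2 (376, 383 and 364 against 30, 23 and 34), Card10, a scaffold of NF-kappaB signalling (85, 115 and 140 against 5, 9 and 17), Col4a6, a chain of basement membrane collagen (146, 121 and 119 against 14, 11 and 14), Wfdc1, Pramef12 and Arl6ip1. Their log2 fold changes ranged from 2.55 in Arl6ip1 to 3.66 in Efhc2. Each of the 10 remained a DEG without any single sample, except Card10, whose adjusted p was 0.0665 in limma without sample 2 of MC38-CMAS KO. Pramef12 belongs to a family of similar genes that may share reads, so its level is uncertain.

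The decrease reached further than the increase. Timp3, a matrix-bound inhibitor of metalloproteinases (chromosome 10, 86300372 to 86349506 of GRCm38), had 5, 3 and 1 normalized counts in MC38-DKO against 957, 1113 and 1186 in MC38-CMAS KO, and its log2 fold change was -8.22 ± 0.37 with an adjusted p of 3.81e-05 in limma. It was thus almost silent in the double knockout and abundant in the single knockout. Pet2 was listed at 0 in the 3 samples of MC38-DKO and had 133, 122 and 126 normalized counts in MC38-CMAS KO, which is at least 38.1-fold lower when MC38-DKO is set to the floor of 3 reads per library. Pacs1, a sorting adaptor of the trans-Golgi network, had 11, 6 and 7 against 510, 484 and 483 (log2 fold change -5.82 ± 0.23). Adamtsl3, a secreted matrix glycoprotein, had 15, 14 and 13 against 627, 636 and 673 (log2 fold change -5.43 ± 0.14). This was the DEG with the smallest adjusted p, 3.07e-06 from limma. Pnma5 had 40, 28 and 30 against 1097, 954 and 905, and Col6a3, a chain of collagen VI, had 141, 121 and 228 against 3382, 3522 and 3890. The remaining 4 were Ddit4l (an inhibitor of mTORC1), Sulf2 (a sulfatase that edits heparan sulfate outside the cell), Clmp (a junctional adhesion molecule) and Trpa1 (a cation channel), with log2 fold changes of -4.97, -4.22, -4.14 and -4.11. All 10 stayed DEGs without any single sample.

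**Figure D2:**
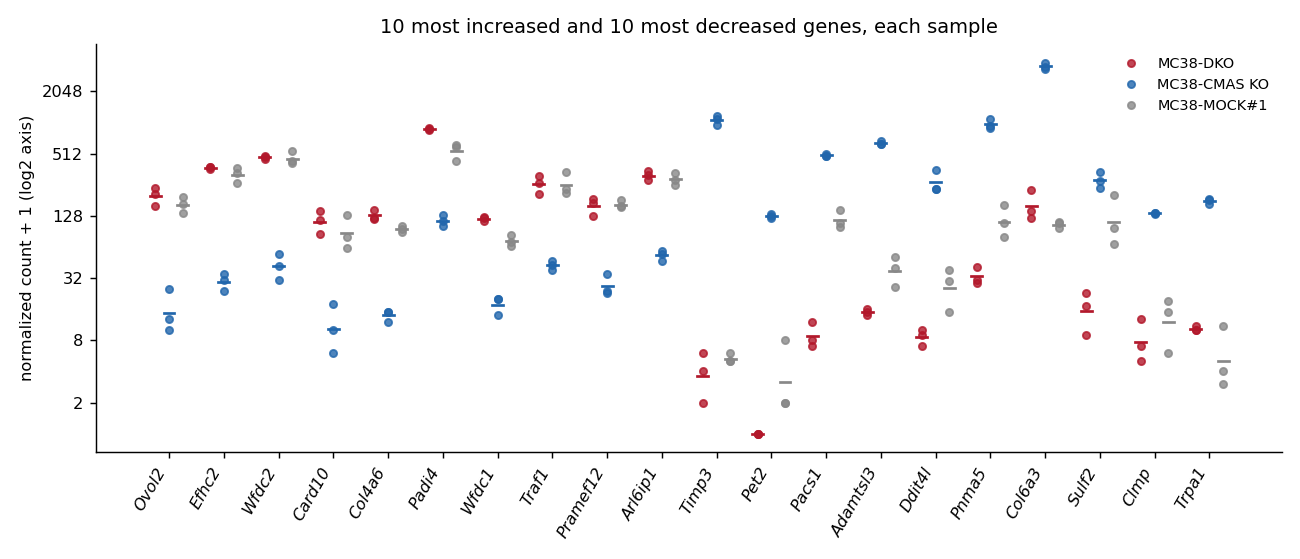
Normalized count plus 1 (log2 axis) of the 10 most increased and 10 most decreased named genes in each sample of MC38-DKO (red), MC38-CMAS KO (blue) and MC38-MOCK#1 (grey), with bars at the mean of the log2 values. The red and blue samples do not overlap in any of the 20 genes, as the naming rule requires. The MC38-MOCK#1 mean is nearer to MC38-DKO in 18 of them.

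These 20 genes were set against the other lines. The mean of MC38-MOCK#1 was nearer to MC38-DKO than to MC38-CMAS KO in 18 of them, the exceptions being Pacs1 (99, 107 and 146 normalized counts in MC38-MOCK#1) and Sulf2 (68, 97 and 204). The mean of MC38-COSMC KO was nearer to MC38-CMAS KO in 19 and that of MC38-WT in 17. Timp3, for example, had 5, 4 and 4 normalized counts in MC38-MOCK#1 but 519, 615 and 697 in MC38-WT and 761, 943 and 877 in MC38-COSMC KO. It was also low in MC38-FUT4 (1, 12 and 4) and high in MC38-FUT9 (1338, 1535 and 1570). The mean of MC38-FUT4 was nearer to MC38-CMAS KO in 15 of the 20 genes and to MC38-DKO in 5 (Timp3, Pet2, Ddit4l, Sulf2 and Clmp). For MC38-FUT9 these numbers were 17 and 3. Over all DEGs, MC38-MOCK#1 was nearer to MC38-DKO for 87.7% of the 689 increased and 81.5% of the 826 decreased genes. MC38-WT was nearer to MC38-CMAS KO for 85.8% and 85.1%, and MC38-COSMC KO for 88.5% and 80.9%. The other mock line, MC38-MOCK#2, differed from MC38-MOCK#1 in this, being nearer to MC38-CMAS KO for 73.4% of the increased and 60.2% of the decreased DEGs and for 16 of the 20 genes above. Both mock lines also differ in passage (6 to 8 in MC38-MOCK#2, 4 to 6 in MC38-MOCK#1), and the part of passage was not tested.

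COSMC was also targeted in cells with CMAS present, which is the comparison of MC38-COSMC KO with MC38-MOCK#1. These 2 comparisons share no sample. Of 20608 genes that could be tested, 4736 (23%) differed between both comparisons in limma's interaction test. Timp3 fell by 8.22 on the log2 scale in MC38-DKO against MC38-CMAS KO, and its log2 fold change was 7.33 in MC38-COSMC KO against MC38-MOCK#1, a difference of -15.55 (adjusted p = 5.2e-11 from limma). Ovol2 had log2 fold changes of 3.75 and -2.89 in the same order (difference 6.64, adjusted p = 1.5e-07 from limma). All 20 genes above passed this test, as did 115 of the 120 called genes covered by the naming rule. In 113 of these 115 the sign was opposite in MC38-COSMC KO against MC38-MOCK#1. These genes were chosen by their change in the first comparison, which is part of this test. Passing it and an opposite sign were therefore favoured in advance. MC38-MOCK#1 and MC38-DKO stand together on the first principal component, and each is the outlying line of its own pair.

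Collagens, the fibres and sheets of the extracellular matrix, had 9 decreased and 2 increased members of 32 tested, or 34.4% called against 6.93% of all genes, and 21 did not pass the test. The median log2 fold change of the 32 was -0.47, while 50.5% of all genes lay above 0. The 3 chains of collagen VI fell together. Col6a1 had 288, 110 and 118 normalized counts in MC38-DKO and 2184, 1641 and 1811 in MC38-CMAS KO (log2 fold change -3.58 ± 0.33, adjusted p = 0.00111 from limma). Col6a2 had 159, 58 and 46 against 1107, 867 and 856 (log2 fold change -3.62 ± 0.40), with sample 1 above samples 2 and 3 in MC38-DKO in both genes. Col1a1, of fibrillar collagen I, had 26, 20 and 34 against 175, 230 and 255, and Col1a2 5, 18 and 26 against 76, 59 and 78. The increased chains were Col4a6 and Col8a1 (33, 60 and 32 against 6, 5 and 9). Col6a1, Col6a3, Col1a1 and Col4a6 stayed DEGs without any single sample, while Col6a2, Col8a1 and Col1a2 did so in 3, 2 and 1 of 6 such fits. The decreased collagens numbered 3 to 6 in those fits.

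Matrix glycoproteins and remodelling enzymes followed the same direction, with 10 decreased and 1 increased of 46 tested (23.9% called) and a median log2 fold change of -0.44. Sparc, a collagen-binding glycoprotein, had 389, 372 and 410 normalized counts in MC38-DKO against 1155, 1254 and 1403 in MC38-CMAS KO (log2 fold change -1.70 ± 0.09, adjusted p = 8.66e-05 from limma). Fbn1, the main protein of microfibrils, had 1644, 1744 and 1754 against 3071, 3206 and 3893 (log2 fold change -0.98 ± 0.10). The lines were separate, as in all DEGs, and the samples of each were close to one another in both genes. Loxl3, an oxidase that crosslinks collagen, had 67, 49 and 70 against 274, 210 and 232. Fbln1 was listed at 0 in MC38-DKO and had 45, 29 and 30 in MC38-CMAS KO. The increased gene was Plaur, the urokinase receptor (1163, 1376 and 1227 against 886, 851 and 900). Sparc, Fbn1, Loxl3 and Fbln1 stayed DEGs without any single sample, and the list had 5 or 6 decreased genes and 0 to 2 increased ones in such fits.

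Among 15 integrins tested, the receptors for these matrices, 3 were decreased and 2 increased (33.3% called, median log2 fold change -0.26). Itgb8, which activates latent TGF-beta, had 0, 0 and 1 normalized counts in MC38-DKO and 90, 52 and 61 in MC38-CMAS KO. Itga5, a fibronectin receptor chain, had 602, 598 and 615 against 956, 890 and 1182, and Itgb4 57, 51 and 48 against 100, 100 and 95. The laminin receptor chain Itga3 was the opposite, with 426, 417 and 452 against 123, 157 and 151 (log2 fold change 1.59 ± 0.12, adjusted p = 0.000432 from limma), as was Itga1 (113, 100 and 89 against 48, 53 and 43). Itgb8 and Itga3 stayed DEGs without any single sample, while Itga5, Itgb4 and Itga1 each did so in 1 of 6 such fits.

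Regulators of the epithelial to mesenchymal transition changed in both senses, with 5 decreased and 2 increased of 21 tested (33.3% called). Prrx1, a mesenchymal homeobox factor, had 204, 239 and 231 normalized counts in MC38-DKO against 723, 758 and 789 in MC38-CMAS KO (log2 fold change -1.75 ± 0.09, adjusted p = 7.83e-05 from limma). Zeb1, a repressor of E-cadherin, had 108, 102 and 113 against 281, 236 and 264. Snai1, which represses the same gene, had 189, 232 and 305 against 437, 456 and 445. As in every decreased DEG, all samples of MC38-DKO lay below those of MC38-CMAS KO in these 3 factors. Fn1, fibronectin, had 8826, 7024 and 6022 against 19373, 13994 and 15163 (log2 fold change -1.15 ± 0.16). In contrast to these mesenchymal genes, Cdh2, N-cadherin, which is mesenchymal as well, was higher, with 449, 474 and 483 against 124, 128 and 130 (log2 fold change 1.87 ± 0.09, adjusted p = 5.21e-05 from limma). Esrp1, a splicing factor of epithelial cells, was lower, with 119, 96 and 116 against 309, 257 and 226. The tight junction gene Ocln was called increased at 3, 5 and 6 against 1, 0 and 0 normalized counts, close to the floor of 3 reads. Cdh2, Prrx1 and Zeb1 stayed DEGs without any single sample, Esrp1 in 5 of 6 such fits (not without sample 2 of MC38-CMAS KO), and Fn1 and Snai1 in 1. Vimentin (Vim) was high in both lines at 24509 to 33315 normalized counts and did not pass the test (adjusted p = 0.926 from limma).

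MHC class I presents peptides from inside the cell to CD8 T cells, on a heavy chain such as H2-K1 or H2-D1 paired with beta-2 microglobulin (B2m). Of 24 genes tested from this pathway, 7 were increased and 0 decreased by limma (29.2% called against 6.93% of all genes), and 21 lay above 0 with a median log2 fold change of 0.34. NLRC5, the transactivator of class I genes, acts through promoter elements that hold an X box and a Y box. The sequence before the start is shown for H2-K1, H2-D1 and B2m, which were increased, as was Nlrc5. The part of Nlrc5 in the increase of these genes was not tested. Promoter windows from RefSeq (GRCm38.p6) were matched to 5 of the 7 genes, all but Nlrc5 and Tapbpl, and the 250 bases before the start of 3 of them read 5′ to 3′ as follows. H2-K1 lies on the minus strand (chr17:34000348-34000597), H2-D1 on the plus strand (chr17:35262844-35263093) and B2m on the plus strand (chr2:122147437-122147686), and capitals mark matches to the 4 motifs named after the sequences, on either strand.
H2-K1: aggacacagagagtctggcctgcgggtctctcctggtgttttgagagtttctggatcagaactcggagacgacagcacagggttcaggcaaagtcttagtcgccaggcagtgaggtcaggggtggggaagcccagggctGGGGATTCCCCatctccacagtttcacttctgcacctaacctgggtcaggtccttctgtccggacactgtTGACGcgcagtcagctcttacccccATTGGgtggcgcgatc
H2-D1: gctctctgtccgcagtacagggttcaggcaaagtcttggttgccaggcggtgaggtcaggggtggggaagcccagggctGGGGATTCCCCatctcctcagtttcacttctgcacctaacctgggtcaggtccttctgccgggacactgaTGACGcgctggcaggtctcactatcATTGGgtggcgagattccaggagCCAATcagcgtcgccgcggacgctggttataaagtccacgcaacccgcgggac
B2m: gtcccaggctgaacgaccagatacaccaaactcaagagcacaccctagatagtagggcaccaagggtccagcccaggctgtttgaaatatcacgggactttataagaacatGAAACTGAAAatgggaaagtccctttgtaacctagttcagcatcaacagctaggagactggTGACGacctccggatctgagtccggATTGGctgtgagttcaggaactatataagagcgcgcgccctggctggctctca

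The motif GGGGANTCCCC, a palindromic form of the NF-kappaB site, was found in 0.0457% of all 32851 promoter windows of the same length and stood in H2-K1 and H2-D1, from base 111 to 101 and from base 171 to 161 before the start. The cyclic AMP element core TGACG was present in all 3 sequences and in 17.8% of all windows. CCAAT, the Y box core, was found in 33.8% of all windows, in all 3 sequences and in Tapbp. GAAANNGAAA, a strict form of the core of the interferon-stimulated response element, was found in 2.98% of all windows and only in B2m among the 5 genes. Only exact matches were searched, so a gene without a match, such as H2-K1 or H2-D1, may still hold a variant of this element. None of the 4 motifs overlapped another in these 3 sequences. The sequences of H2-K1 and H2-D1 are alike, so a motif found in both is not a separate occurrence. The part of these motifs in the class I result was not tested. H2-K1 and H2-D1 have similar sequences and can share reads, so how their counts were divided is uncertain.

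Nlrc5 had 344, 321 and 337 normalized counts in MC38-DKO and 204, 172 and 167 in MC38-CMAS KO (log2 fold change 0.89 ± 0.11, adjusted p = 0.00375 from limma). H2-K1 had 6150, 5456 and 5716 against 4652, 3971 and 4477 (log2 fold change 0.40 ± 0.08, adjusted p = 0.0263 from limma) and H2-D1 had 4763, 4551 and 4619 against 3931, 3557 and 3671 (log2 fold change 0.32 ± 0.06). B2m had 2578, 2521 and 2083 against 1897, 1681 and 1462 (log2 fold change 0.51 ± 0.12). The lines did not overlap in these 4 genes, as in all DEGs, and the differences were small beside those of the matrix genes. Tapbp, which bridges class I to the peptide transporter, had 2897, 2135 and 2312 against 1868, 1330 and 1435, with sample 1 the highest of its line in both. The related editor Tapbpl had 242, 234 and 212 against 165, 109 and 104, and the peptide-trimming protease Erap1 1020, 753 and 825 against 570, 569 and 593. The peptide transporter itself did not pass the test, since Tap1 had 762, 612 and 584 against 668, 459 and 417 (adjusted p = 0.30) and Tap2 562, 417 and 388 against 498, 396 and 378 (adjusted p = 0.81). Nor did the immunoproteasome subunit genes Psmb8 (396, 283 and 300 against 337, 302 and 178) and Psmb9 (56, 59 and 43 against 43, 39 and 22) pass it. Without single samples the list had 0 to 2 increased genes. Nlrc5 was a DEG in 5 of 6 such fits (not without sample 2 of MC38-CMAS KO), Erap1 and Tapbpl in 1, and H2-K1, H2-D1, Tapbp and B2m in none, with adjusted p up to 0.19. Tap1, Tap2, Psmb8 and Psmb9 were named after their values were seen.

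**Figure D3:**
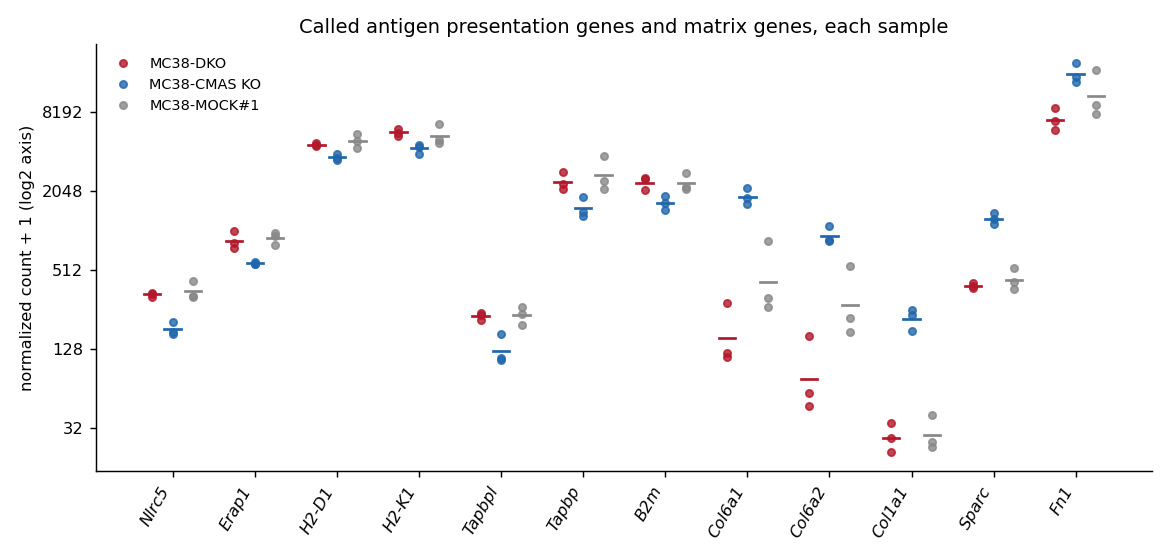
Normalized count plus 1 (log2 axis) of the 7 increased antigen presentation genes and 5 decreased matrix genes in each sample of MC38-DKO (red), MC38-CMAS KO (blue) and MC38-MOCK#1 (grey), with bars at the mean of the log2 values. The red samples lie above the blue ones in the first 7 genes and below them in the others, by a larger distance. No DEG had overlapping samples.

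Interferon-induced antiviral genes were mostly above 0, 36 of 48 tested with a median log2 fold change of 0.29. The share called was 6.25%, near the 6.93% of all genes, with only 3 increased and 0 decreased. These were Apobec3, a cytidine deaminase that restricts retroviruses (303, 298 and 352 normalized counts in MC38-DKO against 177, 168 and 152), Bst2, which tethers budding virions (1316, 1282 and 1275 against 1105, 914 and 833), and Samhd1, a dNTP hydrolase (2440, 2838 and 2599 against 1966, 2176 and 2135). Apobec3 remained a DEG in 5 of 6 fits without a single sample (not without sample 2 of MC38-CMAS KO), Bst2 in 1 and Samhd1 in none. In both lines the passage 4 sample stood above the later passages for most of this list. It was the highest of its line in both lines in 34 of 43 list members with a mean of at least 10 (79.1%) and in 17.2% of all such genes, and in 14 of 22 class I pathway genes (63.6%). Rsad2 had 369, 117 and 65 normalized counts in MC38-DKO and 325, 171 and 59 in MC38-CMAS KO, and Isg15 had 192, 80 and 67 against 314, 161 and 70, so that the spread between passages exceeded the difference between lines. Both were named after their values were seen. The part of this spread in the class I result was not tested. Of 21 interferon-inducible GTPases and p200 genes tested, only Aim2, a sensor of cytosolic DNA, passed (4.76% called, below the share of all genes). It had 299, 222 and 226 against 501, 432 and 371, and without single samples it passed in 1 of 6 fits.

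Among 18 NF-kappaB genes, 3 were increased and 1 decreased (22.2% called against 6.93% of all genes). Besides Traf1, the subunit genes Nfkb2 (2032, 2359 and 2249 normalized counts in MC38-DKO against 1656, 1569 and 1764 in MC38-CMAS KO) and Rel (516, 451 and 412 against 329, 361 and 312) were higher. Nfkbiz, a nuclear inhibitor-like cofactor, was lower (237, 181 and 174 against 346, 357 and 359). Without single samples Traf1 stayed a DEG in all 6 fits, Nfkb2 and Nfkbiz in 1 and Rel in none. Of 17 chemokines and cytokines, 1 was increased and 1 decreased (11.8% called). Cx3cl1, the membrane-bound fractalkine, was higher (279, 202 and 178 against 142, 81 and 83) and the monocyte attractant Ccl7 lower (22, 17 and 19 against 44, 48 and 49). They were DEGs in none and 1 of 6 such fits. Of 17 checkpoint and adhesion ligands, only Vcam1 passed (5.88% called, near the share of all genes). It had 232, 271 and 242 against 808, 756 and 904 (log2 fold change -1.72 ± 0.10, adjusted p = 0.000125 from limma) and stayed a DEG without any single sample. Cd274, which encodes PD-L1, had 186, 124 and 115 against 144, 119 and 117 (adjusted p = 0.78), and its lines overlapped.

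Of 12 polypeptide GalNAc-transferase genes tested, which start O-glycans, 0 were DEGs in limma, against 6.93% of all genes, and 9 lay below 0. At an unadjusted p below 0.05 there was 1, Galnt11, with 121, 100 and 80 normalized counts in MC38-DKO against 131, 154 and 137 in MC38-CMAS KO. Of 13 genes that extend or cap O-glycans, 1 passed (7.69% called). It was B3gnt3, which extends core 1 structures and lies downstream of the step that COSMC serves, with 502, 496 and 501 normalized counts in MC38-DKO against 309, 285 and 254 in MC38-CMAS KO (log2 fold change 0.82 ± 0.10, adjusted p = 0.00299 from limma). It lost the call in 1 of 6 fits without a single sample, that without sample 2 of MC38-CMAS KO, where its adjusted p was 0.05. Of 12 sialic acid genes, 2 were decreased (16.7% called). Renbp, an epimerase that acts on N-acetylglucosamine, had 149, 124 and 123 against 415, 377 and 445 (log2 fold change -1.64 ± 0.12, adjusted p = 0.000395 from limma), and Casd1, the sialic acid O-acetyltransferase, had 187, 163 and 158 against 289, 237 and 229. Gne, the first enzyme of sialic acid synthesis, had 195, 195 and 200 against 224, 231 and 213 (adjusted p = 0.34). Among 17 genes of N-glycan branching and galectins 2 were decreased (11.8% called). Lgals3, a galactose-binding lectin, was lower (2518, 3062 and 2897 against 6333, 5759 and 5348, log2 fold change -1.04 ± 0.10), as was the galactosyltransferase B4galt1 (407, 381 and 389 against 506, 526 and 514). Renbp and Lgals3 stayed DEGs without any single sample, B4galt1 in 1 such fit and Casd1 in none.

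Growth factor pathways were lower in several of their secreted and feedback genes. In the TGF-beta and BMP list, 4 of 32 tested were decreased and 1 increased (15.6% called against 6.93% of all genes). Grem1, a secreted BMP antagonist, had 59, 95 and 92 normalized counts in MC38-DKO against 441, 476 and 588 in MC38-CMAS KO (log2 fold change -2.62 ± 0.20, adjusted p = 0.000474 from limma), and Inhba, the activin A subunit, had 12, 7 and 9 against 113, 89 and 134. Bmp7 was also lower (2, 0 and 1 against 18, 13 and 16) and Bmp4 higher (6, 6 and 4 against 0, 0 and 0), both at low levels. Tgfb3 had 268, 244 and 253 against 372, 318 and 351. Grem1 and Inhba stayed DEGs without any single sample, Bmp4 and Bmp7 in 4 and 2 such fits and Tgfb3 in none.

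Feedback genes of MAPK signalling, many of which are induced by ERK and some of which restrain it, gave 5 decreased and 0 increased of 30 (16.7% called). Of the 30, 23 lay below 0, and the median log2 fold change was -0.25. Phlda1 had 314, 319 and 286 normalized counts in MC38-DKO against 627, 561 and 536 in MC38-CMAS KO (log2 fold change -0.90 ± 0.09), and Spred3 had 105, 90 and 103 against 171, 168 and 187. The phosphatase gene Dusp5 had 39, 69 and 41 against 96, 109 and 104. The early response gene Ier2 had 686, 945 and 813 against 1461, 1357 and 1112. Egr2, of the same class, had 12, 19 and 6 against 85, 73 and 30 and varied most within its lines. Phlda1 stayed a DEG without any single sample, Spred3 in 2 such fits, Dusp5 in 1, and Ier2 and Egr2 in none.

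In the Wnt list 3 of 20 were decreased and 1 was increased (20% called). Wnt10b was lower, with 150, 144 and 189 normalized counts in MC38-DKO against 324, 275 and 284 in MC38-CMAS KO, and Wnt10a higher, with 26, 41 and 41 against 7, 9 and 10. Both remained DEGs in 1 of 6 fits without a single sample. Notch, ephrin and semaphorin genes gave 6 decreased and 1 increased of 41 (17.07% called). The guidance cue genes Sema3f (26, 31 and 35 against 98, 92 and 105), Ntn1 (40, 17 and 28 against 194, 141 and 131) and Nrp1, a co-receptor of class 3 semaphorins and VEGF (316, 269 and 299 against 532, 464 and 533) were lower, and Sema6a was higher (68, 69 and 84 against 34, 38 and 39). Sema3f stayed a DEG without any single sample, Nrp1 in 4 such fits, Ntn1 in 3 and Sema6a in none.

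Cell cycle genes gave 8 decreased and 1 increased of 44 (20.45% called), but the changes were small. Cdk1 had 1898, 1986 and 1994 normalized counts in MC38-DKO against 2574, 2490 and 2442 in MC38-CMAS KO (log2 fold change -0.35 ± 0.06, adjusted p = 0.0152 from limma). Ccne1, cyclin E1, had 198, 202 and 181 against 277, 273 and 276, and Rrm2, a subunit of ribonucleotide reductase, was the increased gene (6623, 7062 and 6520 against 5037, 5485 and 5493). The list had 0 to 2 decreased genes without a single sample, and 0 decreased and 0 increased with the replicate number as a block, which in these lines also sets the passage apart. Of 18 p53 targets 3 were decreased (16.7% called). Among them were Eda2r (34, 35 and 17 against 149, 137 and 127) and Mdm2, the ligase that degrades p53 (502, 433 and 400 against 715, 675 and 632). Eda2r and Mdm2 were DEGs in 3 and 1 of 6 fits without a single sample.

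In the ER stress and amino acid response list, 7 of 30 were decreased and 0 increased (23.3% called). Of the 30, 25 lay below 0, and the median log2 fold change was -0.27. Vldlr, a lipoprotein receptor, had 757, 564 and 607 normalized counts in MC38-DKO against 1259, 1098 and 1155 in MC38-CMAS KO (log2 fold change -0.87 ± 0.12, adjusted p = 0.00539 from limma). The ER chaperone gene Hsp90b1 had 15706, 13124 and 12992 against 18773, 18746 and 20995, and Shmt2, of mitochondrial one-carbon metabolism, 4961, 5829 and 6086 against 7709, 7576 and 8034. The decreased count of this list was 0 to 4 without a single sample, and Vldlr was a DEG in 2 of these 6 fits and Hsp90b1 and Shmt2 in 1.

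Of 32 genes of cholesterol and fatty acid synthesis 3 were decreased, a share of 9.38% near the 6.93% of all genes, with Scd2, a fatty acid desaturase, at 20978, 15896 and 15927 normalized counts in MC38-DKO against 33475, 28813 and 28500 in MC38-CMAS KO. Of 33 glycolysis and hypoxia genes 4 were decreased and 1 increased (15.15% called). Ero1l, an oxidase of disulfide formation, was lower, at 1288, 1026 and 1119 against 1962, 1710 and 1935. Of 27 NRF2 and oxidative stress genes 4 were decreased (14.8% called), with heme oxygenase 1 (Hmox1) at 1776, 1816 and 1852 against 2667, 2475 and 2414. Without a single sample Hmox1 was a DEG in 4 of 6 fits, and Scd2 and Ero1l in 1. The 13 mitochondrially encoded genes were listed at 0 in all samples and could not be tested.

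Of 18 imprinted genes tested, which are expressed from a single parental allele, 5 were decreased and 1 increased (33.3% called against 6.93% of all genes). Igf2r, the receptor that clears IGF2, had 715, 632 and 615 normalized counts in MC38-DKO against 1440, 1366 and 1553 in MC38-CMAS KO (log2 fold change -1.15 ± 0.09, adjusted p = 0.000434 from limma). H19, a long non-coding RNA, was listed at 0 in MC38-DKO and had 14, 23 and 14 in MC38-CMAS KO. Snrpn, of the small nuclear ribonucleoproteins, was near 0 in the other direction, with 37, 33 and 35 in MC38-DKO against 4, 0 and 1. Phlda2 had 48, 48 and 51 against 111, 123 and 124. Igf2r, H19 and Phlda2 stayed DEGs without any single sample and Snrpn in 1 of 6 such fits. Of 32 Hox genes 2 were increased (6.25% called, near the share of all genes). Hoxc10 (98, 99 and 83 against 9, 6 and 8) was a DEG in each of these fits and Hoxa10 (389, 324 and 303 against 234, 250 and 207) in none.

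**Figure D4:**
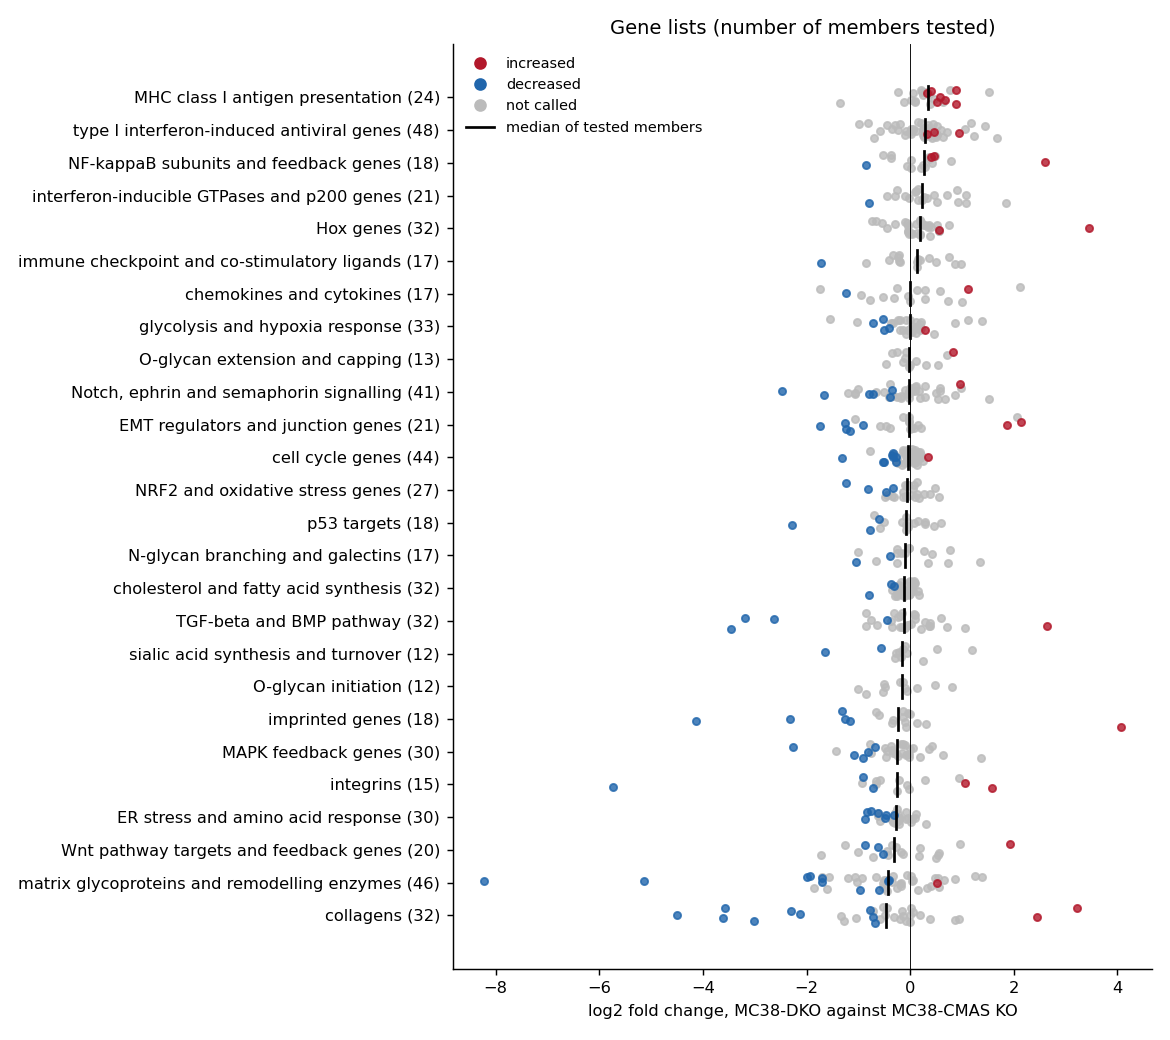
Log2 fold change of MC38-DKO against MC38-CMAS KO (horizontal axis) of every tested member of 26 gene lists (rows, number tested in parentheses), sorted by their median (black bar). Red points are increased and blue points decreased DEGs, with collagens lowest (median -0.47) and MHC class I antigen presentation highest (median 0.34).

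The identity of the cells was read from marker genes. Epcam, Cdh1, Krt19, Cdx2 and Lgr5, which define intestinal epithelium, were listed at 0 in the 6 samples. The mitochondrially encoded genes were listed at 0 in all 24 samples, so a 0 alone need not mean that a gene is silent. Epcam and Cdh1 differ from them in that both reached 3 normalized counts among the 18 samples of the other lines. The 10 epithelial markers summed to 7 to 16 normalized counts in MC38-DKO and 31 to 51 in MC38-CMAS KO. This difference came from Krt20, a keratin of the differentiated gut lining (6, 3 and 4 against 44, 41 and 30). The 10 fibroblast and mesenchyme markers summed to 25516 to 34054 and 28910 to 33025 normalized counts, almost all of it Vim. Of 9 tested, 3 were decreased (33.3% called), namely Col1a1, Col1a2 and Pdgfrb, the last with 77, 27 and 39 against 370, 298 and 390. The 10 T and NK cell markers summed to at most 7, the 7 endothelial markers to at most 6 and the 10 myeloid markers to between 289 and 391 normalized counts. The 6 B cell markers summed to 1250 to 1704 in MC38-DKO and 668 to 995 in MC38-CMAS KO, which was mainly Blnk (876, 1233 and 963 against 360, 609 and 481), and the 6 melanocyte markers to 51 to 92. The part of these markers in the lists above was not tested.

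DEGs were not spread evenly over the chromosomes. On chromosome 10, 104 genes were decreased and 13 increased of 1052 tested, which is 11.1% called against 6.93% of all genes, and the 650 genes with a mean of at least 10 normalized counts had a median log2 fold change of -0.20, with 21.4% of them above 0. Chromosome 15 had 70 decreased and 15 increased of 693 (12.3% called, median -0.15). Chromosomes 13 (98 increased and 19 decreased, median 0.18), 12 (41 and 21, median 0.15) and 18 (41 and 18, median 0.14) moved the other way. Set against the mean of MC38-CMAS KO, the median of chromosome 10 was -0.23, -0.17 and -0.20 in samples 1, 2 and 3 of MC38-DKO. It was -0.18, -0.19 and -0.16 in MC38-MOCK#1, -0.14, -0.13 and -0.16 in MC38-MOCK#2 and -0.09, -0.07 and -0.09 in MC38-WT. MC38-FUT9 was also below 0, at -0.10, -0.06 and -0.11. MC38-COSMC KO (0.15, 0.13 and 0.14) and MC38-FUT4 (0.09, 0.07 and 0.08) lay above MC38-CMAS KO. For chromosome 13 the samples of MC38-DKO gave 0.22, 0.18 and 0.18, and those of MC38-MOCK#1 0.18, 0.17 and 0.09. Thus, set against MC38-CMAS KO, both shifts were present in every sample of MC38-DKO. That of chromosome 10 had the same sign in MC38-WT and in both mock lines.

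**Figure D5:**
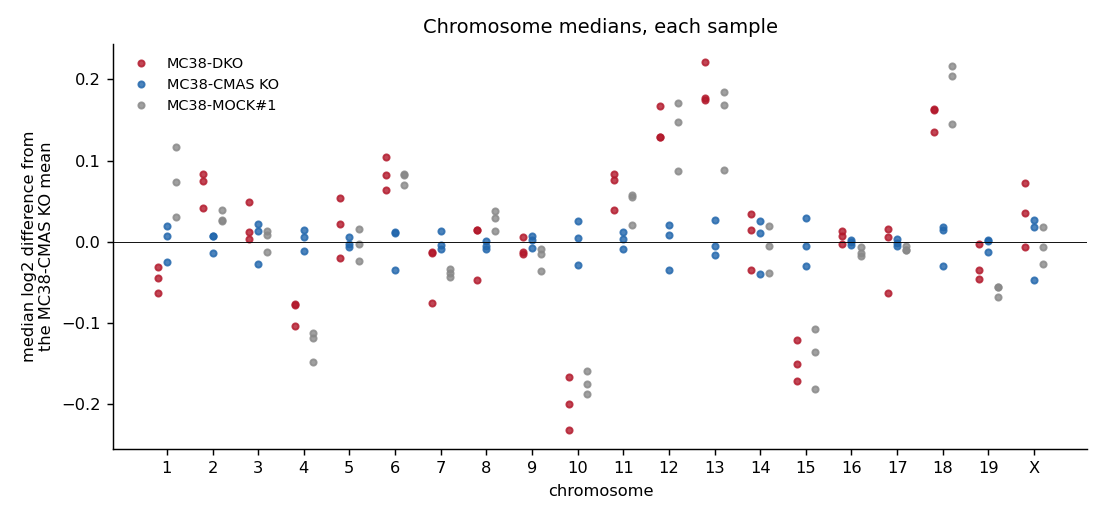
Median log2 difference of each sample from the mean of MC38-CMAS KO (vertical axis) over the genes of each chromosome (horizontal axis) with a mean of at least 10 normalized counts, for MC38-DKO (red), MC38-CMAS KO (blue) and MC38-MOCK#1 (grey). The red samples lie lowest on chromosome 10 (-0.23 to -0.17) and highest on chromosome 13 (0.18 to 0.22).

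Of the 88 listed genes that were decreased, 14 lie on chromosome 10, as do 104 of all 826 decreased DEGs. Among the 14 are Timp3, Col6a1, Col6a2, Phlda1, Cdk1, Mdm2, Hsp90b1 and Shmt2. When each chromosome's median was subtracted from every sample, 1350 genes were DEGs (621 increased, 729 decreased) and 1150 of them were among the 1515. The ER stress list then had 4 decreased genes in place of 7, whereas collagens had 9 decreased and the class I list 7 increased genes as before. The number of copies of each chromosome was not measured here, and its part in these differences was not tested.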

How the data were processed

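RNA of 24 samples was sequenced as stranded single-end 50 bp mRNA libraries on the HiSeq4000. The authors trimmed reads with Sickle, aligned them to GRCm38 with HISAT2 2.0.4, processed them with SAMtools 0.1.19, counted them per gene with featureCounts (Subread 1.5.0-p3) without multi-overlapping reads, and adjusted for library size and TMM with edgeR 3.18.1. In the deposited table the unit is a score, namely read counts scaled by one factor per library and rounded, so edgeR and DESeq2 were not run on them. How multi-mapped reads and strand were treated is not given in the sources used here.

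Genes with more than 4 zeros among 6 samples were left out. limma 3.58.1 in R 4.3.3 (eBayes with a trend) was fitted to log2 of the value plus 1 with both lines, and Benjamini-Hochberg adjusted p over all genes below 0.05 called a DEG. Adjusted p in the text are from this fit. The interaction was fitted on the 12 samples of 4 lines. On simulated data the fit recovered 175 of 200 genes changed 2-fold among 21140 tested in MC38-DKO against MC38-CMAS KO. Depth was read from gaps and pile-ups that scaling and rounding leave among the small values, and a limit drawn from it covers counting error only. The floor is 3 reads times the mean factor of the line.

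The naming rule takes the targeted genes, the 10 increased and 10 decreased genes of largest change with a mean of at least 100 in the higher line (without predicted genes, pseudogenes and overlapping samples), and up to 6 called and the first 2 genes of each list. Other genes given with values were chosen after those were seen. A gene that the rule names is not reported here. The comparison and gene lists were chosen with earlier results of these data known. Listed symbols absent from the table were matched through RefSeq synonyms (4 symbols). Alternatives were the pseudocount, filter, scaling, chromosome medians, eBayes settings, replicate block, all 24 samples, a 2-fold threshold and each sample left out. Figures were drawn with matplotlib 3.10.9 in Python 3.11.15.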

Additional observations from a re-analysis of the deposited data

Results flagged for a closer look

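The change in MC38-DKO against MC38-CMAS KO differed from that in MC38-COSMC KO against MC38-MOCK#1 in 4736 of 20608 genes by limma's interaction test. C1galt1c1 was among them with a log2 difference of 0.73 (adjusted p = 0.02 in limma), since its log2 fold change was 0.01 in the first comparison and -0.73 in the second. Among the 10 most increased genes the differences were 6.64 for Ovol2, 5.50 for Efhc2, 6.03 for Wfdc2, 4.97 for Card10, 5.53 for Col4a6, 4.56 for Padi4, 4.54 for Wfdc1, 4.38 for Traf1, 3.47 for Pramef12 and 4.66 for Arl6ip1. Among the 10 most decreased they were -15.55 for Timp3, -13.71 for Pet2, -8.04 for Pacs1, -8.62 for Adamtsl3, -8.06 for Ddit4l, -7.96 for Pnma5, -9.73 for Col6a3, -6.93 for Sulf2, -8.10 for Clmp and -8.55 for Trpa1. The genes of largest change were chosen by the first comparison, which is part of each difference. The value of Pet2 depends on the pseudocount, because MC38-DKO was listed at 0.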

How the results depend on the processing

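Against 1515 DEGs (689 increased, 826 decreased), the count was 591 (259 and 332) with an absolute log2 fold change above 1, 692 (285 and 407) without a trend in eBayes and 2403 (1112 and 1291) with all 24 samples in a single fit. Leaving out a sample gave 231 to 761 DEGs (94 to 332 increased, 137 to 429 decreased), with fewer samples by construction. The interaction called 1954 genes with an absolute log2 difference above 1 and 3948 to 4696 without a sample. With the replicate block there were 795 DEGs (334 increased, 461 decreased), of which 700 were among the 1515. Same-numbered samples of both lines correlated at 0.14, 0.05 and 0.18 in their deviations over 13511 genes, which did not exceed 0.1 in every pair. The labels give them the same passage but no shared culture or day, so they were not treated as pairs, although each correlated best with its own number, a hint from the data. With the block the cell cycle list had 0 decreased and 0 increased genes in place of 8 and 1, the Wnt list 0 decreased in place of 3, the Notch list 3 in place of 6, the ER stress list 4 in place of 7, the glycolysis list 2 in place of 4 and the NF-kappaB list 1 increased in place of 3.

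No alternative reversed any of the 120 called genes covered by the naming rule, 40 of which stayed DEGs in all 17 refits and H19 in the 16 that tested it. The log2 fold change of C1galt1c1, not called in any, was -0.0026 with median-of-ratios scaling, -0.068 with chromosome medians subtracted, and -0.12 to 0.13 without a sample, and that of Cmas was 0.13 to 0.34 without a sample. Of the uncalled genes, Vim ranged from -0.15 to 0.072 and Tap2 from -0.065 to 0.22 without a sample, changing sign without sample 1 of MC38-DKO in both and without sample 2 of MC38-CMAS KO (0.034) in Vim. The cause of these changes was not tested. Depth limits genes near the floor of 3.33 normalized counts in MC38-DKO and 3.07 in MC38-CMAS KO.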
